A study of Mus musculus with 4 samples.

Results

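The RNA of 8 genes was followed through the cells of mouse fracture callus: the ligands Tnf, Lta, Ltb and Tnfsf12 and the receptors Tnfrsf1a, Tnfrsf1b, Ltbr and Tnfrsf12a. The members were taken by name, as TNF, lymphotoxin and TWEAK with the receptors that bind them, and are 8 of the 32285 genes in the deposited tables. They were read in every marker-defined cell class of 4 single-cell RNA-seq libraries, to learn which cells carried the ligand RNA, which carried the receptor RNA and how both differed with serum-transferred arthritis. All mice were wild-type C57BL/6J animals, 3 months old, with a fracture. Control mice received Vehicle and RA mice received K/BxN serum, an arthritogenic serum that stands in for rheumatoid arthritis. Callus was taken at 4 or 7 days post-fracture (dpf), which gives control_4d, RA_4d, control_7d and RA_7d. The series describes each library as a pool of 4 calluses, while the study's methods give another number. There was thus 1 library per condition and no replicate of any condition. Each library was also its own batch, and batch and group cannot be told apart. No test between conditions was therefore possible, and every interval below is an exact 95% interval that covers counting error only.

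TNF is a trimeric cytokine made chiefly by activated myeloid and lymphoid cells, and it binds TNFR1 (Tnfrsf1a), which most cell types carry, and TNFR2 (Tnfrsf1b), which is more restricted to immune and endothelial cells. Lymphotoxin-α (Lta) is secreted as a trimer that binds the same receptors, or joins lymphotoxin-β (Ltb) in a membrane-bound heterotrimer that binds the lymphotoxin-β receptor (Ltbr) on stromal, endothelial and myeloid cells and starts the non-canonical NF-κB pathway. TWEAK (Tnfsf12) acts through Fn14 (Tnfrsf12a), a small receptor known for its induction in injured tissue. In bone, TNF is known to favour osteoclast formation and to hold back osteoblast differentiation.

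Tnf, Lta and Ltb lie side by side on mouse chromosome 17. In the GENCODE M21 annotation of GRCm38 (mm10), Ltb covers chr17:35194439-35196320 on the plus strand, Tnf covers chr17:35199381-35202007 on the minus strand and Lta covers chr17:35203165-35205351 on the minus strand. A gap of 3060 bases separates Ltb from Tnf, and 1157 bases separate Tnf from Lta. Ltbr (chr6:125306571-125313885, minus strand) and Tnfrsf1a (chr6:125349362-125362484, plus strand) both lie on chromosome 6, 35476 bases apart. Tnfrsf1b is on chromosome 4 (chr4:145213463-145246870, minus strand), Tnfrsf12a on chromosome 17 (chr17:23675445-23677468, minus strand) and Tnfsf12 on chromosome 11 (chr11:69686250-69695849, minus strand). Tnfsf12 overlaps the antisense gene Tnfsf13os and the read-through gene Tnfsfm13, which had no entry of its own in the count tables, so its counts are less certain than those of the other members. The RefSeq promoter windows of Ltb and Tnf (GRCm38.p6, 250 bases before the gene start) are shown because these neighbours were read in different cells. The capitals mark the single match to the 10-letter NF-κB (κB) consensus, searched on both strands:
Ltb, chr17:35194257-35194506, plus strand: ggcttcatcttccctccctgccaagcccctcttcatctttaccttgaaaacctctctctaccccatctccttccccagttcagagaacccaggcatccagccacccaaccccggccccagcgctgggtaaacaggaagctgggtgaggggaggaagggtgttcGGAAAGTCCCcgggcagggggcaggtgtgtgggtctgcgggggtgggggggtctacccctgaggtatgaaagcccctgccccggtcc
Tnf, chr17:35202008-35202257, minus strand: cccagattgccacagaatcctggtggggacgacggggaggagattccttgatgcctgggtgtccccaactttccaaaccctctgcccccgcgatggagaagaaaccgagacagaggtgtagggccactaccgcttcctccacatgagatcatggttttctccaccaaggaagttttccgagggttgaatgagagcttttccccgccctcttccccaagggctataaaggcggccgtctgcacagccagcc

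The match in the Ltb window begins 87 bases before the RefSeq start, which lies downstream of the GENCODE M21 start given above, and reads as the consensus on the minus strand. The table held an entry for 7 of the 8 members, and only the Ltb window had a match. A match is a description of the letters, since 2382 of 32851 promoter windows (7.25%) held 1, and the absence of a match says only that these letters are not in the window.

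The libraries held 34038 cell barcodes, 5896 to 10306 each, and 25479 cells (4110 to 8223 per library) passed the filters of the study's methods, with a median of 16093.5 to 17631.5 unique molecular identifiers (UMIs) per cell. Across all pairs of libraries 66 barcodes were shared, and the highest correlation between the profiles of a shared barcode was 0.745. Clustering without the 8 members gave 30 clusters, of which all but 2 were placed in 12 classes by their markers. The class names are short for cells that look like the named type. The neutrophil class, cluster 22, had Camp, Ngp, Ltf, Elane, Prtn3 and Ctsg among its leading genes, which granulocyte precursors express. With looser cell filters a further neutrophil cluster appeared, led by Retnlg, at a median depth of 0.30 relative to its library. The neutrophil values below thus describe mainly the deeper, precursor-like cells. Cluster 13 carried dendritic cell markers, but more markers of another class than of its own were among its leading genes, and cluster 29 mixed mast cell, basophil and B cell markers, so both are called by number. The level of a gene is its summed UMIs per 1000000 UMIs of that class in that library (CPM).

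**Figure D1:**
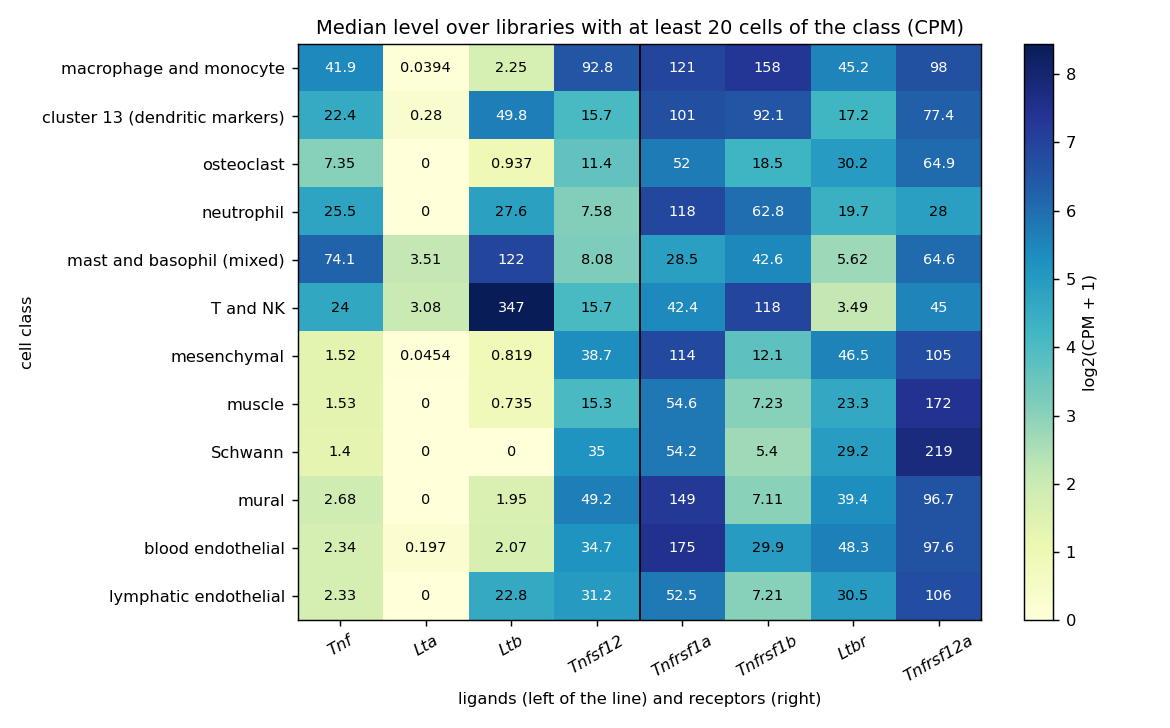
Median level (CPM, printed in each cell and coloured as log2(CPM + 1)) of the 4 ligands and 4 receptors in 12 cell classes, over the libraries with at least 20 cells of the class. Tnf was highest in cluster 29 (the mixed mast and basophil line, where 1 cell held 13 of 19 UMIs in control_4d) and in macrophages, Ltb in T and NK cells, while each of the 4 receptors had RNA in every class.

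Tnf RNA was mainly myeloid. In the macrophage and monocyte class, Tnf stood at 42.1 CPM (95% interval 40.0 to 44.1) in control_4d, 41.7 CPM (39.2 to 44.4) in RA_4d, 36.5 CPM (34.3 to 38.9) in control_7d and 58.7 CPM (55.1 to 62.5) in RA_7d. The RA_7d library lay above the other libraries, with no overlap of intervals, and the 4 dpf libraries could not be separated. In neutrophils the Tnf level was 18.8 CPM in control_4d, 34.1 in RA_4d, 27.5 in control_7d and 23.5 in RA_7d. These rest on 19, 204, 45 and 20 UMIs, of which the 10 richest cells held 84.2%, 37.3%, 71.1% and 100%. A single cell held 14 of the 45 in control_7d. In the T and NK class Tnf ranged from 20.3 to 27.5 CPM, and in cluster 13 from 13.6 to 36.6 CPM. In cluster 13 the 10 richest cells of a library held 41.8% (control_4d) to 84.6% (RA_7d) of its Tnf UMIs. These classes followed macrophages in the order of levels, with medians of 25.5 CPM in neutrophils, 24.0 in T and NK cells and 22.4 in cluster 13, and their ranges overlapped. Osteoclasts were lower, at a median of 7.35 CPM. The mixed cluster 29 had the highest median, 74.1 CPM over the libraries with enough cells, from 19 UMIs in 21 cells of control_4d and 26 UMIs in 39 cells of RA_4d. A single cell held 13 of the 19 UMIs and another 9 of the 26, and the 13 cells of control_7d had no Tnf UMI, so this rank rests on a few cells. Mesenchymal cells, the progenitors, fibroblasts and chondrocytes of the callus, had 1.36, 1.46, 1.86 and 1.59 CPM of Tnf in control_4d, RA_4d, control_7d and RA_7d.

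A Tnf UMI was detected in a minority of macrophages. Detection depends on depth, so a cell without a Tnf UMI may still have held Tnf RNA. Without thinning, 29.2% of macrophages had a Tnf UMI in control_4d, 27.7% in RA_4d, 21.7% in control_7d and 31.0% in RA_7d, at median depths of 13926, 13801, 10744.5 and 11368 UMIs per cell. Mesenchymal cells served as the background: 2.65% to 3.24% of them had a Tnf UMI although their median depth was about 24459 to 31292 UMIs. After each cell was thinned to 4000 UMIs, the minimum of the cell filter, the macrophage shares were 13.3%, 11.9%, 11.2% and 16.0% in the same order, and the mesenchymal shares were 0.704%, 0.980%, 0.556% and 0.486%. The thinned share in RA_7d (14.1% to 18.1%) lay above that of control_7d (9.97% to 12.6%), and that of RA_4d overlapped control_4d. Cells with 5 or more Tnf UMIs numbered 74, 45, 35 and 41 in control_4d, RA_4d, control_7d and RA_7d, and held 32.5%, 35.2%, 26.1% and 31.9% of the Tnf UMIs of the class. With the 10 cells richest in Tnf left out of each library, the levels were 38.9, 36.3, 32.5 and 52.2 CPM, so RA_7d remained the highest.

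Tnf differed among the macrophage clusters. Cluster 2, which matched resident macrophages (Mrc1, Folr2, Lyve1), had 63.5, 77.8, 55.6 and 84.4 CPM of Tnf in control_4d, RA_4d, control_7d and RA_7d. Cluster 5, an MHC class II-high cluster, had 72.1, 35.3, 43.9 and 76.3 CPM in the same order, and the other MHC class II-high cluster, 14, stayed between 36.1 and 39.1 CPM. The Arg1-high clusters were lower: cluster 8 had 22.1 to 48.8 CPM and cluster 0 had 23.3 to 37.7 CPM. The monocyte cluster 18 had 12.6 to 28.5 CPM.

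**Figure D2:**
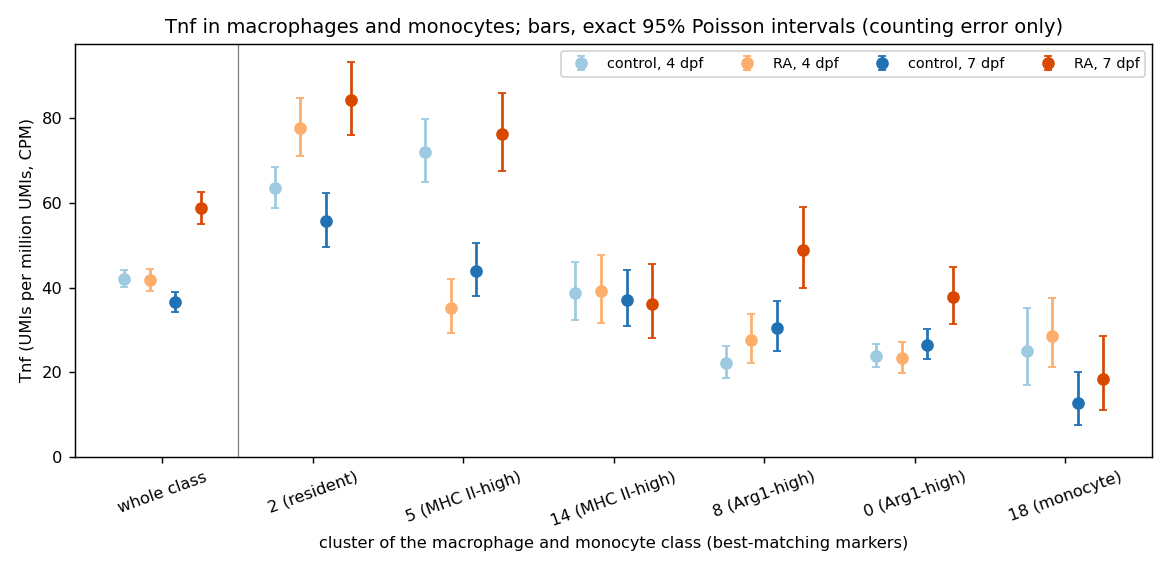
Tnf level (CPM) in the macrophage and monocyte class and in its 6 clusters, 1 point per library, with exact 95% Poisson intervals that cover counting error only. RA at 7 dpf stands above control at 7 dpf in the class as a whole (58.7 against 36.5 CPM) and in clusters 2, 5, 8 and 0, but not in cluster 14.

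At 4 dpf the RA to control ratio of Tnf in macrophages was 0.992 (0.917 to 1.07), and at 7 dpf it was 1.61 (1.47 to 1.76). At 7 dpf the ratio was above 1 in 5 of the 6 clusters, with an interval above 1 in 4 of them: 1.52 (1.30 to 1.77) in cluster 2, 1.74 (1.44 to 2.10) in cluster 5, 1.60 (1.21 to 2.12) in cluster 8 and 1.43 (1.14 to 1.78) in cluster 0. Cluster 14 was the exception, at 0.973 (0.715 to 1.31). The clusters went different ways at 4 dpf, with 1.22 (1.09 to 1.38) in cluster 2 and 0.489 (0.396 to 0.600) in cluster 5. When the RA clusters were weighted by their UMIs in the control library, the class ratio at 7 dpf was 1.48. An interval above 1 was common in these large classes: 20.2% of the 12133 genes compared in macrophages at 7 dpf had 1, and 15.8% had an interval below 1. A 2-fold difference was rare there, at 0.767% of genes higher and 0.28% lower in RA, and none of the 7 members compared reached it. On the log2 scale, the 90th percentile of all genes was 0.33.

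Other values differed between the same macrophage sums. The 10 early response genes that tissue dissociation induces were all higher in RA macrophages at 7 dpf, by a median of 0.34 on the log2 scale (0.47 in mesenchymal cells), and Egr1 stood at 39.7 CPM in control_7d and 117 CPM in RA_7d. Neutrophil markers, 8 genes in all, summed to 158, 993, 587 and 297 CPM in the macrophages of control_4d, RA_4d, control_7d and RA_7d. Their part in the Tnf difference was not tested. In the 461 cells of cluster 19, unnamed and led by cell cycle genes, Tnf was 23.7, 11.3, 17.3 and 49.8 CPM in the same order. The RA_7d value rests on 23 UMIs in 24 cells.

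In other classes the Tnf differences were smaller or less certain. In neutrophils the ratio was 1.81 (1.13 to 3.07) at 4 dpf and 0.857 (0.479 to 1.48) at 7 dpf. The first was 0.609 with looser cell filters, where the class included the Retnlg-led cluster. Among all genes, 7.64% had an interval above 1 in neutrophils at 4 dpf. In osteoclasts, where Tnf was 5.07 CPM in control_4d and 10.8 CPM in RA_4d, the ratio at 4 dpf was 2.12 (1.19 to 3.95), beside 9.49% of genes with an interval above 1. It was 0.693 at the coarser clustering resolution, where the class held 785 cells instead of 351. There the cycling cluster 19 (461 cells, ratio 0.475 at 4 dpf) was no longer separate, so this value describes a different set of cells. Cluster 13 had a ratio of 0.715 (0.538 to 0.942) at 4 dpf, where 11.4% of genes had an interval below 1, and 0.731 (0.422 to 1.25) at 7 dpf. In the T and NK class the ratios were 1.35 (0.801 to 2.36) and 0.873 (0.553 to 1.40), both within counting error.

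The share of all Tnf UMIs that lay in macrophages and monocytes was 77.4% in control_4d, 66.4% in RA_4d, 71.8% in control_7d and 72.7% in RA_7d. The class made up 48.0%, 40.6%, 29.4% and 16.8% of the cells in the same order. At 7 dpf, then, a class that was a smaller part of the RA library held about the same share of Tnf as in control, with called doublets kept. Neutrophils held 13.2% (11.5 to 15) of the Tnf UMIs in RA_4d, the library in which they were most numerous (222 cells against 37 to 77 in the others). With looser cell filters the class had 420 cells in RA_4d and held 18.9% (17.2 to 20.7) of its Tnf UMIs. Mesenchymal cells, low in Tnf but numerous at 7 dpf, held 11.3% in control_7d and 12.2% in RA_7d. Part of this lay in cluster 26, a fibroblast cluster whose second-best match was MHC class II-high macrophages. It had 15.5 CPM (20 UMIs) in control_7d and 13.7 CPM (29 UMIs) in RA_7d. The other mesenchymal clusters had 0.522 to 3.03 CPM at 7 dpf. Called doublets were kept in these shares. Without them the macrophage share at 7 dpf was higher in both libraries, and higher in RA_7d than in control_7d, as given in the closing section. The part of macrophage RNA in the mesenchymal share was not tested.

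Over whole libraries Tnf was 19.7 CPM in control_4d, 18.5 in RA_4d, 9.43 in control_7d and 8.54 in RA_7d. Both 7 dpf libraries lay well below the 4 dpf libraries, and within a time point RA was close to control, with ratios of 0.943 (0.883 to 1.01) and 0.906 (0.839 to 0.978). In such whole-library sums fewer cells of a class and less RNA per cell cannot be told apart, so the class make-up was held constant in turn. With the RA levels weighted by the classes of the control library, the ratio was 0.953 at 4 dpf and 1.43 at 7 dpf. With the control levels weighted by the classes of the RA library, it was 0.931 and 0.682. At 7 dpf the lower share of macrophages and the higher Tnf level within them went in opposite directions.

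**Figure D3:**
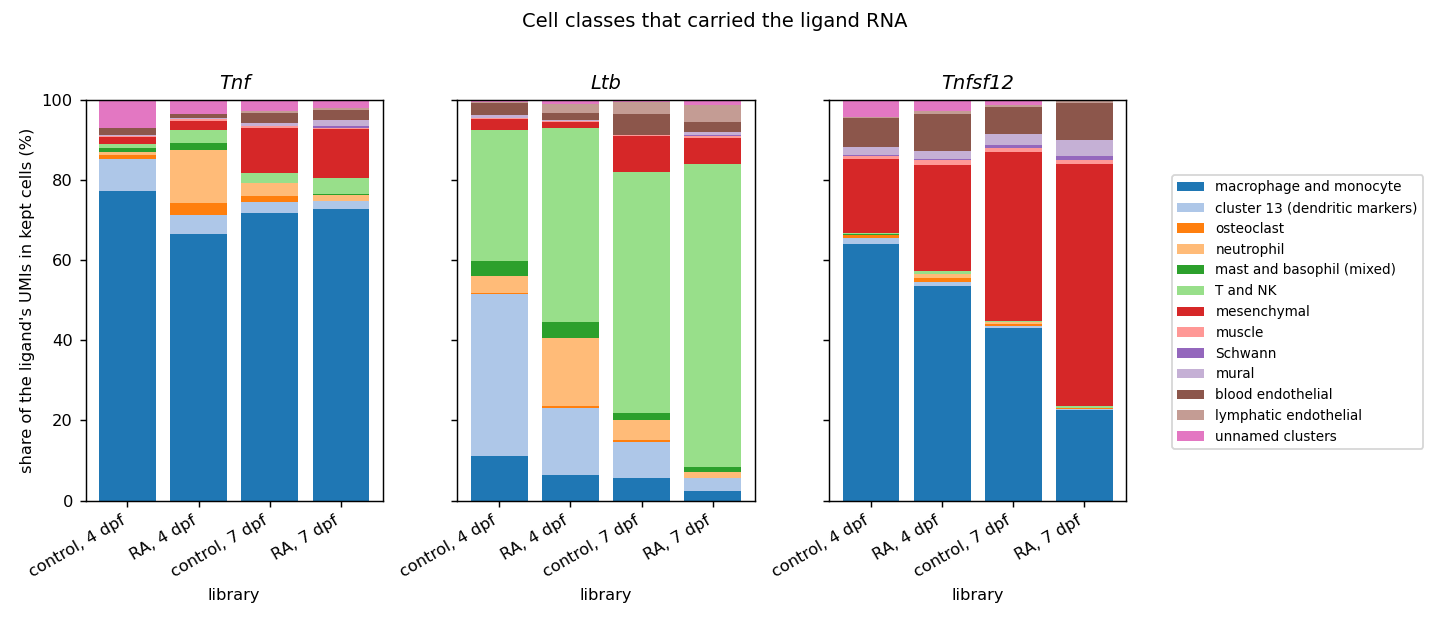
Share (%) of the UMIs of Tnf, Ltb and Tnfsf12 in kept cells that lay in each cell class, 1 stacked bar per library. Macrophages held 66.4% to 77.4% of Tnf in every library, T and NK cells held 32.9% to 75.4% of Ltb, and the Tnfsf12 share of macrophages was 64.1% in control_4d and 22.7% in RA_7d.

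Lta was close to the detection limit. Only 51 Lta UMIs were counted in 25479 cells, 17 of them in the T and NK class, where the level was 3.87, 1.06, 3.20 and 2.95 CPM from 4, 2, 4 and 7 UMIs. Of the T and NK cells with an Lta UMI, 4 of 4 in control_4d, 2 of 2 in RA_4d, 4 of 4 in control_7d and 5 of 7 in RA_7d also had an Ltb UMI, and 77.9% of all T and NK cells had 1. Over whole libraries Lta had 12, 5, 10 and 24 UMIs in control_4d, RA_4d, control_7d and RA_7d. The RA to control ratio was 0.542 (0.150 to 1.65) at 4 dpf and 2.17 (1.00 to 5.09) at 7 dpf, the latter interval just above 1, and with looser cell filters the 7 dpf ratio was 1.40 (0.738 to 2.71).

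Ltb was the ligand of the T and NK class, at 293 CPM (261 to 328) in control_4d, 256 CPM (233 to 279) in RA_4d, 426 CPM (390 to 463) in control_7d and 400 CPM (375 to 427) in RA_7d. The 7 dpf libraries were higher than the 4 dpf libraries with no overlap, and within a time point the intervals of RA and control overlapped. A Ltb UMI was found in 76.3% of these cells in both 4 dpf libraries, in 80.9% in control_7d and in 77.7% in RA_7d, at median depths of 6689 to 9120 UMIs. Thinned to 4000 UMIs, the shares were 68.0%, 50.9%, 67.3% and 65.6% in control_4d, RA_4d, control_7d and RA_7d, against 0.123% to 0.432% of thinned mesenchymal cells. The RA to control ratio of Ltb in T and NK cells was 0.871 (0.753 to 1.01) at 4 dpf and 0.940 (0.845 to 1.05) at 7 dpf. At 7 dpf, 9.05% of the 7048 genes compared in this class had an interval above 1 and 7.51% had an interval below 1, and at 4 dpf these shares were 11.5% and 12.3%. The class was a single cluster that mixed NK and T cells. With looser filters these formed separate clusters, and Ltb was among the leading genes of the T cell cluster. The NK and T cell clusters had 82 and 98 cells in control_4d and 130 and 121 in RA_4d. At 7 dpf they had 184 and 122 in control_7d and 279 and 153 in RA_7d. The part of this mix in the T and NK values of the members was not tested.

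Ltb RNA was also present outside T and NK cells. Cluster 13 had 80.3, 57.5, 42.1 and 20.4 CPM in control_4d, RA_4d, control_7d and RA_7d, lower in RA than in control at both times, by ratios of 0.716 (0.593 to 0.862) and 0.486 (0.322 to 0.721). At 7 dpf this passed 2-fold on the log2(CPM + 1) scale, as 2.58% of the 6551 genes compared in cluster 13 did in that direction. A T or NK cell marker was found in 168 of the 255 cells of cluster 13 with Ltb (65.9%). It was found in 246 of the 615 without (40%), at median depths of 12305 and 12422 UMIs. In neutrophils the order was the reverse, with 46 of 128 and 121 of 248. The part of T or NK cell RNA in these Ltb values was not tested. Neutrophils had 24.7 to 38.6 CPM of Ltb, and cluster 29 had 162 CPM in control_4d and 82.3 CPM in RA_4d. Macrophages had only 1.87 to 2.64 CPM, so the macrophage Tnf message was not accompanied by that of its neighbour gene. With looser cell filters a separate B cell-like cluster appeared, with 342, 222, 299 and 208 CPM of Ltb, and it held 12.1% of the Ltb UMIs in control_4d.

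Lymphatic endothelial cells stood apart from the other endothelial cells in Ltb. They had 2.32 CPM in control_4d from 1 UMI, 37.2 CPM (23.8 to 55.3) in RA_4d, 18.1 CPM (11.9 to 26.6) in control_7d and 27.4 CPM (20.5 to 35.9) in RA_7d, while blood endothelial cells had 1.72 to 3.77 CPM. At 7 dpf the RA to control ratio was 1.51 (0.928 to 2.52), which counting error can give. The 104 Ltb UMIs lay in 38 of the 308 cells. Cells with 5 or more Ltb UMIs numbered 2 in RA_4d, 1 in control_7d and 5 in RA_7d. They held 58.3%, 30.8% and 66.0% of the Ltb UMIs there, so these levels rest on a few cells. With the 10 richest cells left out, RA_7d had 5.12 CPM. All 38 cells had a UMI of Prox1, Mmrn1 or Flt4, lymphatic markers that also named the class, as did all 270 cells without Ltb. Doublets were called for none of the 38 and for 4 of the 270. A T or NK cell marker was found in 7 of the 38 cells (18.4%) and in 33 of the 270 cells without Ltb (12.2%), at median depths of 15780 and 12358.5 UMIs. The 8 T cell markers summed to 1, 4, 12 and 9 UMIs in the lymphatic cells of control_4d, RA_4d, control_7d and RA_7d. The NK cell markers summed to 1, 473, 2 and 105 UMIs with the chemokine Ccl5 and to 1, 2, 1 and 3 UMIs without it.

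T and NK cells held 32.9% of the Ltb UMIs in control_4d, 48.3% in RA_4d, 60.0% in control_7d and 75.4% in RA_7d. They were 1.77%, 4.21%, 2.11% and 3.54% of the cells. Cluster 13 held 40.5% of Ltb in control_4d but 3.10% in RA_7d. Its Ltb UMIs numbered 373, 167, 79 and 39 in control_4d, RA_4d, control_7d and RA_7d, of 922, 999, 886 and 1258 in the library. The cluster had 355, 193, 181 and 141 cells in the same order. Over whole libraries Ltb was 8.50, 12.0, 6.25 and 8.03 CPM, with RA to control ratios of 1.41 (1.29 to 1.54) and 1.29 (1.18 to 1.40). With the class make-up of control, the ratios were 0.830 and 0.942, and with control levels in the class make-up of RA they were 1.71 and 1.39. Neutrophils also held more of the Ltb in RA at 4 dpf, 39 UMIs in control_4d and 170 in RA_4d, beside 303 and 483 UMIs in T and NK cells. These sums describe the libraries, and no cause was tested.

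Tnfsf12, the gene of TWEAK, was broader. Macrophages led with 105, 76.3, 95.2 and 90.5 CPM in control_4d, RA_4d, control_7d and RA_7d, followed by mural cells (smooth muscle and pericytes, median 49.2 CPM), mesenchymal cells (38.7 CPM), Schwann cells (35.0 CPM) and blood endothelial cells (34.7 CPM). Neutrophils were lowest at 7.58 CPM. At 4 dpf the RA to control ratio in macrophages was 0.726 (0.687 to 0.766), below 1 in all 6 clusters and with an interval below 1 in 5, among 17.6% of 12624 genes with an interval below 1 in that comparison. The lowest value was 0.532 (0.452 to 0.625) in the Arg1-high cluster 8. At 7 dpf the ratio was 0.95 (0.891 to 1.01), which counting error can give. T and NK cells, at 0.529 (0.309 to 0.903), and osteoclasts, at 0.543 (0.345 to 0.847), were also below 1 at 4 dpf, and muscle cells, at 1.75 (1.13 to 2.70), were above it. The hemoglobin and other erythroid genes in the same macrophages summed to 859 CPM in control_4d and 52.0 CPM in RA_4d, and their part in this and the other 4 dpf differences was not tested. In mesenchymal cells Tnfsf12 differed at the later time: 0.990 (0.907 to 1.08) at 4 dpf and 1.29 (1.23 to 1.36) at 7 dpf, from 30.1 CPM in control_7d and 38.8 CPM in RA_7d. All 8 mesenchymal clusters were above 1 at 7 dpf, 6 of them with an interval above 1, and 27.2% of the 17358 genes compared had such an interval.

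The mesenchymal clusters were not equally filled at 7 dpf. Cluster 3, committed progenitors, was the largest in control_7d (668 cells), and cluster 1, fibroblast precursors, was the largest in RA_7d (1019 cells). With the clusters weighted as in control, the Tnfsf12 ratio was 1.20. The share of Tnfsf12 UMIs that lay in macrophages was 64.1%, 53.4%, 43.0% and 22.7% in control_4d, RA_4d, control_7d and RA_7d, and that in mesenchymal cells was 18.3%, 26.3%, 42.1% and 60.2%. At 7 dpf the main holder of TWEAK RNA was thus the mesenchymal class in RA, and both classes held similar shares in control.

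The TNF receptors split by lineage. Tnfrsf1a (TNFR1) was found in every class, with medians from 28.5 CPM in cluster 29 and 42.4 CPM in T and NK cells to 175 CPM in blood endothelial cells, a 6.16-fold span. Blood endothelial cells had 170, 198, 152 and 180 CPM in control_4d, RA_4d, control_7d and RA_7d, and within them the venular cluster 9 was highest, at 227 to 277 CPM. Mural cells came next (144 to 172 CPM), in a range that overlapped that of blood endothelial cells and lay above the rest. Macrophages (117 to 127 CPM), neutrophils (114 to 130 CPM) and mesenchymal cells (106 to 128 CPM) followed, with ranges that overlapped each other. Tnfrsf1b (TNFR2) had a 29.3-fold span. It was highest in macrophages, at 136, 152, 164 and 194 CPM, and in T and NK cells, at 106, 112, 125 and 142 CPM, which overlapped in range. Cluster 13 had a median of 92.1 CPM, neutrophils 62.8 and blood endothelial cells 29.9. Mesenchymal cells (9.85 to 13.3 CPM) and Schwann cells (median 5.40 CPM) were at the low end. The Schwann value ranged from 0 to 25.2 CPM over the libraries, from 43 UMIs in all. It sets the low end of the Tnfrsf1b span, so the size of that span is uncertain.

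For each Tnfrsf1a UMI there were 2.96 Tnfrsf1b UMIs in T and NK cells, 1.28 in macrophages, 0.87 in cluster 13, 0.56 in neutrophils, 0.17 in blood endothelial cells and 0.11 in mesenchymal cells. This ratio compares classes, and says nothing of receptor protein. In macrophages it was 1.11 in control_4d, 1.20 in RA_4d, 1.37 in control_7d and 1.65 in RA_7d, and the intervals of the 4 dpf libraries overlapped (1.07 to 1.15 and 1.14 to 1.26) while those of the 7 dpf libraries did not (1.30 to 1.43 and 1.56 to 1.75). Most macrophages with a Tnf UMI also had a Tnfrsf1b UMI, as did most macrophages as a whole. With a Tnf UMI, 613 of 768 cells had 1 in control_4d and 372 of 463 in RA_4d. At 7 dpf the counts were 379 of 489 in control_7d and 351 of 429 in RA_7d. Among all macrophages, 2058 of 2628, 1335 of 1670, 1746 of 2258 and 1115 of 1384 had 1, in the same order.

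**Figure D4:**
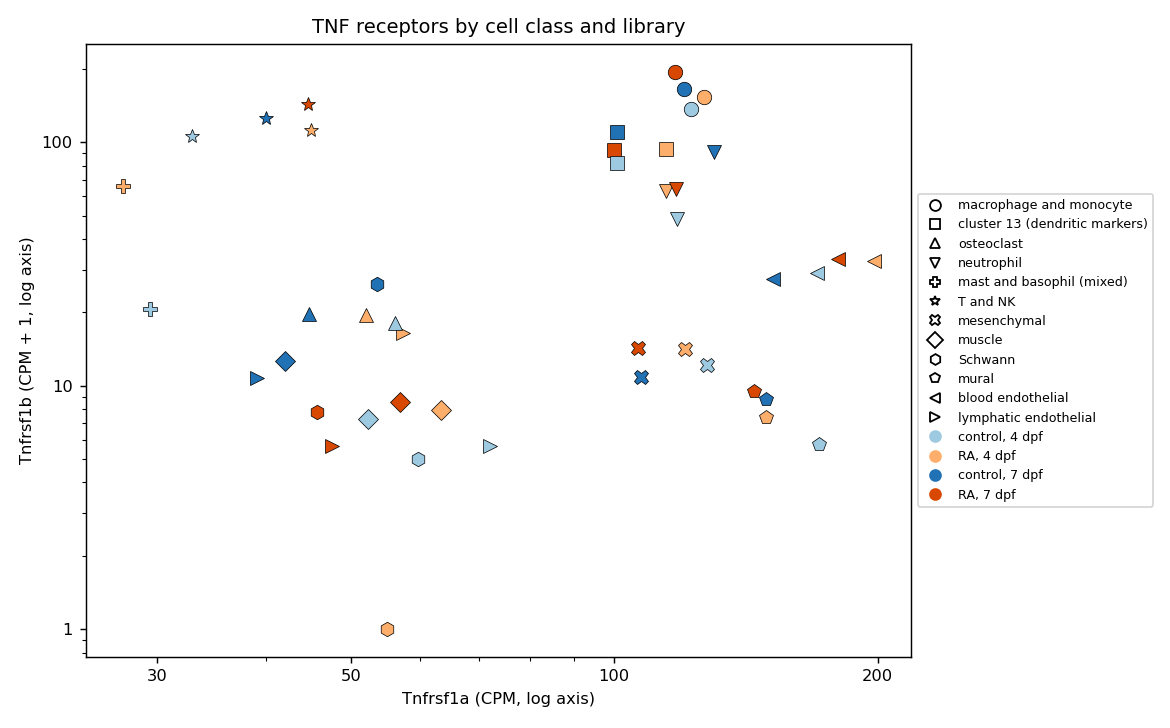
Tnfrsf1b (CPM + 1, log axis) against Tnfrsf1a (CPM, log axis) for each cell class (marker shape) in each library with at least 20 cells of the class (colour). Macrophages and T and NK cells form the top of the plot, and blood endothelial cells, with the highest Tnfrsf1a, stand near 30 CPM of Tnfrsf1b.

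Tnfrsf1b was higher in RA macrophages at both times, by a ratio of 1.12 (1.07 to 1.17) at 4 dpf and 1.18 (1.13 to 1.24) at 7 dpf. At 4 dpf all 6 macrophage clusters were above 1 and 3 had an interval above 1, where 23.8% of all genes compared in the class did. At 7 dpf 5 of 6 were above 1, and 4 had an interval above 1. The largest ratio was in the Arg1-high cluster 8, where Tnfrsf1b was 199 CPM in control_7d and 332 CPM in RA_7d, a ratio of 1.67 (1.5 to 1.86). In mesenchymal cells Tnfrsf1b was low but also higher in RA, by 1.19 (1.01 to 1.39) at 4 dpf and 1.35 (1.24 to 1.48) at 7 dpf (1.23 with the clusters weighted as in control). In blood endothelial cells the ratios were 1.12 (0.958 to 1.31) and 1.22 (1.06 to 1.40). Neutrophils went the other way at 7 dpf, from 90.3 to 63.5 CPM, a ratio of 0.704 (0.505 to 0.967). Of the classes with enough UMIs, 7 of 7 were above 1 at 4 dpf, 2 with an interval above 1, and 5 of 8 at 7 dpf, 3 with an interval above 1. The share of all genes with an interval above 1 ran from 7.64% to 26.2% over the classes at 4 dpf and from 8.95% to 27.2% at 7 dpf.

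Tnfrsf1a differed less. In blood endothelial cells the RA to control ratio was 1.16 (1.09 to 1.24) at 4 dpf and 1.19 (1.12 to 1.26) at 7 dpf, where 17.3% and 21.4% of genes had an interval above 1. At 7 dpf all 4 blood endothelial clusters were above 1, 2 with an interval above 1, and with the clusters weighted as in control the ratio was 1.09. In muscle cells (stem cells and differentiating muscle) the ratio was 1.21 (0.983 to 1.49) at 4 dpf and 1.35 (1.11 to 1.65) at 7 dpf, where 21.5% of genes had an interval above 1. In macrophages it was 1.04 (0.990 to 1.08) and 0.976 (0.922 to 1.03), and in mesenchymal cells 0.945 (0.900 to 0.992; 1.01 with looser filters) and 0.992 (0.964 to 1.02).

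Ltbr, the receptor for the lymphotoxin heterotrimer, had a pattern unlike that of its ligand Ltb. Blood endothelial cells had 45.6 to 50.7 CPM, mesenchymal cells 42.1 to 50.3 CPM, macrophages 41.3 to 45.6 CPM and mural cells 36.6 to 39.5 CPM, while T and NK cells had a median of 3.49 CPM. The RA to control ratio of Ltbr ranged from 0.930 to 1.09 over the classes at 4 dpf and from 0.830 to 1.43 at 7 dpf. It had an interval that included 1 in 8 of 8 classes at 4 dpf and in 8 of 9 at 7 dpf, the exception being mesenchymal cells at 0.951 (0.910 to 0.994).

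Tnfrsf12a, the gene of Fn14, was highest in Schwann cells (231, 208, 232 and 190 CPM in control_4d, RA_4d, control_7d and RA_7d) and muscle cells (174, 107, 170 and 232 CPM). Lymphatic endothelial, mesenchymal, macrophage and blood endothelial cells followed with medians between 97.6 and 107 CPM, and neutrophils were lowest at 28.0 CPM. All 11 pairs of neighbours in the order overlapped in range. The RA libraries had less Tnfrsf12a in most classes. In mesenchymal cells the level was 106, 84.6, 126 and 104 CPM in control_4d, RA_4d, control_7d and RA_7d, and RA was below control at both times with no overlap of intervals, by ratios of 0.799 (0.755 to 0.845) and 0.829 (0.806 to 0.852). At 7 dpf all 8 mesenchymal clusters were lower with an interval below 1, where 35.0% of the genes compared in the class had such an interval. With the clusters weighted as in control the ratio was 0.843. In blood endothelial cells the ratios were 0.725 (0.661 to 0.795) and 0.783 (0.728 to 0.842), against 15.7% and 19.8% of genes with an interval below 1. Mural cells at 7 dpf had 0.716 (0.630 to 0.813) and Schwann cells 0.818 (0.696 to 0.964), where 13.6% and 11.3% of genes had an interval below 1.

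At 4 dpf the Tnfrsf12a ratio was below 1 in 11 of 11 classes, with an interval below 1 in 6, while the share of all genes with such an interval ran from 9.37% to 19.3% over the classes. At 7 dpf the interval was below 1 in 5 of 10 classes and above 1 in 2, where the shares of all genes ran from 7.51% to 35.0% for below 1. The classes above 1 were macrophages, at 0.839 (0.794 to 0.887) at 4 dpf and 1.08 (1.02 to 1.15) at 7 dpf, and muscle cells, at 0.611 (0.528 to 0.705) and 1.37 (1.24 to 1.51). Of the 6 macrophage clusters at 7 dpf, 3 were above 1 and 3 below, from 0.780 to 1.14. No macrophage cluster had an interval above 1 there, and 1 had an interval below 1. In muscle, RA_4d was the library that stood apart, at 107 CPM against 170 to 232 CPM. Muscle was a single cluster that mixed differentiating and stem cells. With looser filters these formed separate clusters, of 206 and 86 cells in control_4d and 98 and 73 in RA_4d. At 7 dpf they had 235 and 115 cells in control_7d and 154 and 239 in RA_7d. The part of this mix in the muscle ratios of the members was not tested.

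On the log2(CPM + 1) scale no member passed 2-fold in macrophages, mesenchymal cells, blood endothelial cells or T and NK cells at either time. The genes that did so made up 0.792% (higher) and 0.827% (lower) of those compared in mesenchymal cells at 4 dpf and 1.56% and 1.06% at 7 dpf. In blood endothelial cells they were 0.467% and 0.582% at 4 dpf and 1.2% and 0.587% at 7 dpf, in macrophages 0.444% and 0.57% at 4 dpf, and in T and NK cells 1.43% and 2.96% at 4 dpf and 0.624% and 1.15% at 7 dpf. In the other classes 1 to 7 members had enough UMIs, and none passed 2-fold on that scale except Ltb in cluster 13 at 7 dpf. The osteoclast Tnf ratio of 2.12 at 4 dpf, taken without a pseudocount, did not reach the limit on that scale. At 4 dpf the genes at least 2-fold higher and lower there were 4.59% and 4.18% in Schwann cells, 3.83% and 2.57% in lymphatic endothelial cells, 2.28% and 1.76% in muscle, 0.775% and 1.39% in mural cells, 1.76% and 3.43% in neutrophils, 0.393% and 0.322% in osteoclasts, 0.751% and 0.775% in cluster 13 and 12.2% and 4.88% in cluster 29. At 7 dpf they were 3.34% and 2.61% in Schwann cells, 1.71% and 1.08% in lymphatic endothelial cells, 3.24% and 3.11% in muscle, 0.972% and 0.757% in mural cells, 2.67% and 2.68% in neutrophils and 1.02% and 2.58% in cluster 13.

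The 7 to 4 dpf ratios were read in the same 4 libraries, so they share samples with the ratios of RA against control. Tnf in macrophages was lower at 7 than at 4 dpf in control, by a ratio of 0.869 (0.801 to 0.941), and higher in RA, by 1.41 (1.29 to 1.54). Ltb in T and NK cells was higher at 7 dpf in both, by 1.45 (1.26 to 1.68) in control and 1.57 (1.40 to 1.75) in RA. In cluster 13 Ltb was lower in both, by 0.524 (0.406 to 0.670) and 0.355 (0.244 to 0.506). Tnfrsf1b in macrophages was higher at 7 dpf in both, by 1.21 (1.16 to 1.26) and 1.28 (1.22 to 1.34). Tnfrsf12a in mesenchymal cells was also higher in both, by 1.19 (1.14 to 1.24) and 1.23 (1.18 to 1.29). For Tnfsf12 the ratios of control and RA did not overlap: in macrophages they were 0.905 (0.861 to 0.951) in control and 1.19 (1.11 to 1.27) in RA, and in mesenchymal cells they were 0.773 (0.721 to 0.829) and 1.01 (0.936 to 1.08).

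Known target genes of TNF signalling, a list of 26, were read in classes that had TNF receptor RNA. The list does not tell TNF from other signals, and whether these cells received TNF was not tested. In mesenchymal cells at 7 dpf, 2 of 26 were at least 2-fold higher in RA and none was 2-fold lower. Among all genes compared there, 1.56% were 2-fold higher and 1.06% lower. The median of the list was 0.16 on the log2 scale against -0.03 for all genes. The 10 early response genes of tissue dissociation had a median of 0.47 in the same sums. Mmp3, a matrix-degrading metalloproteinase, stood at 68.8 CPM in control_7d and 378 CPM in RA_7d, a log2 ratio of 2.44. Il6, an inflammatory cytokine, was at 14.1 and 34.1 CPM (log2 1.21), and the adhesion molecule Icam1 had a log2 ratio of 0.83. Mmp9 (-0.82) and the chemokine Cxcl10 (-0.74) were lower. In macrophages 2 of 22 were 2-fold higher, Mmp3 from 0.686 to 4.41 CPM and the monocyte chemokine Ccl2 from 198 to 430 CPM, and none was 2-fold lower, with a median of 0.15 against 0.01. In blood endothelial cells 1 of 24 was higher (Mmp3, log2 2.36) and 2 lower (Cxcl10, -1.28, and Mmp9, -1.12), with a median of -0.06. Among all genes there, 1.2% were higher and 0.587% lower. Mmp9 was also an osteoclast marker, and the osteoclast class had 96 cells in control_7d and 9 in RA_7d. The part of osteoclast RNA in the lower Mmp9 of mesenchymal and blood endothelial cells was not tested. In T and NK cells 2 of 16 were lower and none higher, with Cxcl10 from 114 to 18.1 CPM. The macrophage level of Mmp3 was close to that of classes not known for it. In RA_7d it was 6.75 CPM in T and NK cells and 4.71 CPM in neutrophils, and a Mmp3 UMI was found in 5.06% of macrophages and 5.15% of T and NK cells, at median depths of 11368 and 7186 UMIs, with at most 2 UMIs in a cell. How much of the macrophage Mmp3 was RNA from other cells was not tested. In blood endothelial cells 9.03% had a Mmp3 UMI in RA_7d, with up to 45 UMIs in 1 cell, and how much of this was RNA from mesenchymal cells was not tested. At 4 dpf the counts of higher and lower genes were 1 and 0 of 24 in mesenchymal cells, 0 and 1 of 22 in macrophages, 0 and 0 of 23 in blood endothelial cells and 1 and 4 of 19 in T and NK cells. The shares of all genes past 2-fold at 4 dpf are given above, as are those of macrophages and T and NK cells at 7 dpf. They are the background for these counts and for the lists below.

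Among 10 targets of the lymphotoxin-β receptor and the non-canonical pathway, 1 of 9 was 2-fold higher in mesenchymal cells at 7 dpf, where 1.56% of all genes were. It was Ccl19, a chemokine that guides T cells and dendritic cells. It stood at 9.76 and 24.0 CPM in control_4d and RA_4d and at 4.09 and 19.9 CPM in control_7d and RA_7d, higher in RA at both times, with log2 ratios of 1.22 and 2.04. Cxcl13, a B cell chemokine, was at 1.34 and 3.67 CPM at 7 dpf. In macrophages Ccl21a, a chemokine that is normally made by lymphatic endothelium, was at 0.838 and 22.5 CPM at 7 dpf, the 1 of 6 past 2-fold. Of the 373 UMIs in RA_7d, 186 lay in 1 cell, and 30 of 1384 macrophages (2.17%) had a UMI, against 1.61% of blood endothelial cells, at median depths of 11368 and 13997 UMIs. Lymphatic endothelial cells had 6617 and 10217 CPM of Ccl21a in control_7d and RA_7d. The macrophage value was carried by few cells, and where its RNA came from was not tested. None of 5 passed 2-fold in blood endothelial cells, and 1 of 4 was higher in T and NK cells. At 4 dpf 2 of 8 were higher in mesenchymal cells. None of the 4, 5 and 3 compared in blood endothelial cells, macrophages and T and NK cells passed 2-fold at 4 dpf. Vcam1, Icam1, Nfkb2 and Relb of this list are also among the TNF target genes above, so the lists overlap.

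The other ligands of the superfamily stood out in T and NK cells. Tnfsf8, the CD30 ligand, was at 6.78, 30.7, 14.4 and 69.2 CPM in control_4d, RA_4d, control_7d and RA_7d, and Tnfsf11 (RANKL, the osteoclast-inducing cytokine) was at 10.4 and 31.6 CPM at 7 dpf. These were the 2 of 5 ligands compared that were 2-fold higher. Mesenchymal Tnfsf11 was at 18.1, 51.9, 31.1 and 21.7 CPM in the same order, higher in RA at 4 dpf and lower at 7 dpf, and none of the 10 ligands compared there passed 2-fold at 7 dpf. In macrophages Tnfsf18 (GITR ligand) was at 0.571 and 6.04 CPM at 7 dpf, the only 1 of 8. Of the other receptors, only Tnfrsf17 in macrophages (0.762 and 2.72 CPM) passed 2-fold at 7 dpf, and there the B cell markers summed to 63.0, 59.1, 60.0 and 127 CPM in control_4d, RA_4d, control_7d and RA_7d, whose part in it was not tested. Tnfrsf11a (RANK) in blood endothelial cells, at 29.7 and 58.5 CPM, lay just under it with a log2 ratio of 0.95.

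Of the signalling machinery, none of the 28 adaptors and kinases compared in mesenchymal, blood endothelial and macrophage cells, or of the 22 compared in T and NK cells, was 2-fold higher or lower at 7 dpf. Ripk3, a kinase of necroptosis, had log2 ratios of -0.85 in mesenchymal cells and -0.73 in blood endothelial cells. In macrophages Nfkb1 was at 172 and 233 CPM (log2 0.44) and Cflar, an inhibitor of caspase-8, at 108 and 145 CPM (0.43). None of the 13 genes of TNF shedding and mRNA control passed 2-fold in macrophages, with a median of 0.16 against 0.01 for all genes. Zfp36, which destabilises Tnf mRNA, stood at 276 CPM in control_7d and 365 CPM in RA_7d macrophages, a log2 ratio of 0.40, beside the higher Tnf. Timp3, an inhibitor of the TNF sheddase Adam17, was low in macrophages, at 3.24 and 7.01 CPM.

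The genes whose levels followed a member most closely over 45 sums of class and library, among 14762 genes, are given as a description, since the sums share libraries and cells. For Tnf they were Vav1, Grk2 and Sash3 (Pearson r = 0.92 for each). For Lta they were Ikzf3 (0.92), Jakmip1 (0.90) and Gpr174 (0.89), and for Ltb Tbc1d10c (0.91), Ptprcap (0.90) and Acap1 (0.89). For Tnfrsf1b they were Hpcal1 (0.94), Naip5 (0.92) and Ccr2 (0.91), and for Tnfsf12 Adam9 (0.88), Ptpra (0.81) and Camk1 (0.81). Ltbr went with App (0.85), Plod3 and Akt1 (0.84 each), and Tnfrsf12a with Ccdc50 (0.86), Farp2 and Sgcb (0.82 each). Tnfrsf1a had the weakest matches, with Fam217b and Il13ra1 (0.77 each) and Anxa3 (0.76).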

How the data were processed

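Single cells were isolated from callus by collagenase digestion, and 10000 cells per condition were loaded for 10x Genomics 3′ (v3.1) libraries. The deposited files held raw UMI counts for each gene in each barcode, made by the authors with Cell Ranger 7.0.1 on mm10, per the submitters' processing notes. Cells with 4000 to 50000 UMIs, 2000 to 7000 genes and at most 8% mitochondrial UMIs were kept, after the study's methods, which left 25479 of 34038 barcodes. Libraries were integrated by CCA in Seurat 5.3.0 (2000 variable genes without the 8 members, 15 principal components, Louvain resolution 1). Scrublet in scanpy 1.11.5 called 592 doublets (2.32% of kept cells), which were kept. Clusters were named by their best-matching marker list, with thresholds set after the clusters were seen. Rebuilt names may differ from those of the study.

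UMIs were summed per class and library as CPM. Intervals are exact Poisson for levels, Clopper-Pearson for shares and exact conditional for ratios, at 95%, and cover counting error only. A ratio was compared where both libraries had at least 20 cells and together at least 50 UMIs. Lists used log2(CPM + 1), so ratios of low genes are understated, and 2-fold as the limit. Scripts were tested on simulated data (Python 3.11.15, scipy 1.17.1, R 4.3.3). The members and lists were chosen with earlier results of these data known. Named genes were the 8 members, up to 5 genes of each list with the largest absolute log2 ratio at 7 dpf in a class, the 3 genes most correlated with each member, and markers. The Tnfsf12 promoter and protein sequences were not used here. Looser filters, no integration, resolution 0.5, doublets left out, TMM scaling, mean single-cell CPM, thinning and other pseudocounts or minimums were tried.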

Additional observations from a re-analysis of the deposited data

Results flagged for a closer look

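Tnfrsf12a went in different directions at the 2 time points in the same class. Its RA to control ratio was 0.839 in macrophages and monocytes at 4 dpf and 1.08 at 7 dpf, and 0.611 in muscle cells (cluster 12) at 4 dpf and 1.37 at 7 dpf, with intervals on opposite sides of 1. Tnf did so in 2 clusters: the MHC class II-high macrophage cluster 5, at 0.489 and 1.74, and the unnamed cycling cluster 19, at 0.475 and 2.87. In RA_7d cluster 19 had only 23 Tnf UMIs in 24 cells. For Tnfrsf12a at 7 dpf, no single macrophage cluster had an interval above 1. Each condition had 1 library, the mix of muscle cells differed between libraries, and the difference between time points was not tested.

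The barcodes outside the main cell filters, part of which enter the looser-filter values, were summed on their own. Some members had RA to control ratios with an interval above 1 there. At 4 dpf the ratio was 1.23 for Tnf, 1.38 for Ltb, 1.08 for Tnfrsf1a and 1.33 for Tnfrsf1b, where the kept cells had 0.943 for Tnf and 1.00 for Tnfrsf1a. At 7 dpf it was 1.19 for Ltb and 1.34 for Tnfsf12. Tnfrsf12a was below 1 at both times, at 0.615 (0.592 to 0.639) and 0.905 (0.861 to 0.951), and the other ratios had intervals that included 1. These barcodes mix very shallow, very deep and mitochondria-rich droplets, and the differences were not tested.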

How the results depend on the processing

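No paired analysis was possible because each condition has 1 library. Among the main results, 124 values stayed within their counting interval under the alternatives and 20 did not. For Tnfrsf12a in mesenchymal cells the RA to control ratio was 0.701 at 4 dpf and 0.855 at 7 dpf with looser cell filters, 0.795 at 7 dpf without integration and 0.854 with TMM scaling. Ltb in T and NK cells at 4 dpf was 0.734 with looser filters. With the clusters of a class weighted as in control, an alternative chosen after seeing the data, Tnfrsf1a in blood endothelial cells at 7 dpf was 1.09. The macrophage share of Tnf with looser filters was 67.0% in control_4d, 56.2% in RA_4d, 64.1% in control_7d and 66.5% in RA_7d, and without called doublets 74.9% in control_7d and 79.7% in RA_7d. The T and NK share of Ltb was 39.6% in RA_4d with looser filters and 78.5% in RA_7d without doublets. The macrophage share of Tnfsf12 was 53.5%, 42.3%, 38.1% and 21% with looser filters in the same order as Tnf, and 44.9% in control_7d and 24.3% in RA_7d without doublets. Among the other values 817 stayed, 90 moved and 3 reversed: Tnf in neutrophils at 4 dpf was 0.609 and Tnfrsf1a in mesenchymal cells at 4 dpf 1.01 with looser filters, and Tnf in osteoclasts at 4 dpf was 0.693 at resolution 0.5. With these settings the neutrophil and osteoclast classes held other sets of cells than in the main clustering, and the causes were not tested. With 1 library per condition, no spread between animals can be given, and Lta is limited by depth.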
